A study of Mus musculus with 16 samples.

Results

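The genes of the proteasome, the barrel-shaped protease that degrades ubiquitin-tagged proteins, were followed through the RNA peak lists of mouse sperm. Members were the genes whose symbol begins Psma to Psmg followed by a number and which a peak of at least 1 of 8 lists named. They came to 41 of the 20176 genes named in any list. The 8 lists came from 4 Dnmt2-/- males on the C57BL/6 background, aged 6 to 8 months, all lacking the RNA methyltransferase Dnmt2. Males 1 and 2 were raised on a normal diet (ND) and males 3 and 4 on a high-fat diet (HFD) with 21% butter. Each male gave a library of DNA-bound RNA (D), released from sperm DNA by DNase, and a library of free RNA (F), the RNA of the aqueous phase. Each diet held 2 males, and the wild-type libraries of the series were not analysed here.

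Each list gave regions where RNA reads piled up above their surroundings, called peaks, with a position class and the gene whose start site lay nearest. A peak in an exon, a UTR, at a start site (promoter-TSS) or at a transcript end (TTS) is called genic below. The nearest start site is not always that of the transcript a peak lies in, so each gene was also scored by peaks within its own annotated transcript, including a non-coding isoform of it. By that count the reference held 50 genes of these names. Peak scores were whole multiples of a fixed step within each list, and scores divided by that step are given as tags, taken as reads. All peaks were listed on 1 strand, so sense and antisense RNA cannot be told apart.

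The proteasome has a core of stacked rings, in which alpha subunits (Psma) form the gate and beta subunits (Psmb) include the proteolytic sites. A regulatory particle on its ends recognises ubiquitin and unfolds substrates, with a ring of ATPases (Psmc) and a set of non-ATPase subunits (Psmd) that hold scaffolds, ubiquitin receptors and a deubiquitinase. Activators (Psme) can replace that particle, Psmf1 binds and modulates the core, and Psmg proteins chaperone core assembly. In the male germ line the proteasome is known for a testis-specific alpha subunit, Psma8, for Psme4 in the removal of histones from spermatids, and for a presence in mature sperm. Psmc3ip matched the name pattern only: it is a partner of meiotic recombinases, not a subunit, and it is included in the totals but in none of the subunit classes.

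A few stretches of transcript from exons that held peaks are printed here. The beta subunit Psmb4 had peaks in 4 successive exons of the free RNA of male 1, and the first set prints its spliced coding sequence across the borders between them. Capitals mark the downstream exon. The gene is on chromosome 3, minus strand, of mm10, and exon 2 ends at 94886441, exon 3 runs from 94886221 to 94886075, exon 4 from 94885741 to 94885660 and exon 5 starts at 94885033. Introns of 219, 333 and 626 bases separate them. The listed peak of exon 2 ran from 94886485 to 94886654, so the printed end of that exon lay outside it. That of exon 3 ran from 94886089 to 94886258 and reached only the edge of the printed end of exon 3.
Psmb4 exons 2 and 3: tctcggccagatggtGATTGATGAAGAGCT
Psmb4 exons 3 and 4: tgctgacggagaaagCTTCCTCGGTTATGT
Psmb4 exons 4 and 5: gcatacttggctcagCCTCTGCTTCGAGAA

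The second set prints coding sequence at the centre of 2 further peaks, with the central codon in capitals. Psmb5, the subunit with the chymotrypsin-like site, is shown at chr14:54614298-54614327 on the minus strand, in the stretch of its last exon that held a peak in the free RNA of both male 1 and male 3. Psmb6, the subunit with the caspase-like site, is shown at chr11:70527505-70527534 on the plus strand, under the highest proteasome peak of male 1. Sequences are from the GENCODE M21 transcripts.
Psmb5 exon 3: ccaagccacctacAGAgatgcctactccgg
Psmb6 exon 6: tcaggggtagagcggCAGgtgcttttggga

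Exonic RNA of proteasome genes was found almost wholly in the free RNA of male 1. By nearest start site, D held 0, 1, 0 and 1 members with a genic peak in males 1 to 4, and F held 32, 0, 2 and 0. The male 1 count was 78.0% of the 41 members, where 37.1% of all named genes had a genic peak in that library. Both shares are taken over genes that a list named. Some members, as Psma2, Psmb6 and Psmc3, were named by F of male 1 alone, so its share is partly set by that choice. The male 3 count was 4.88%, against 6.76% of all genes. The shares over all genes were 0.625%, 5.43%, 2.85% and 2.57% in D of males 1 to 4, 0.887% in F of male 2 and 1.97% in F of male 4. Outside F of male 1 the member counts thus stood at 0 to 2, close to or below the background.

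Scored by own transcript, the picture was the same in outline. Members with a peak in their own transcript were 0, 1, 0 and 1 of 50 in the DNA-bound RNA of males 1 to 4 and 34, 0, 4 and 0 of 50 in the free RNA. The share in F of male 1 was 68.0%, with 32.3% over all protein-coding genes, and in F of male 3 it was 8.00%, with 5.92%. In D of males 1 to 4 the background shares were 0.542%, 4.62%, 2.39% and 2.32%, in F of male 2 0.742% and in F of male 4 1.67%. Without F of male 1, the members with a peak in any library were 4 rather than 32 by nearest start site and 6 rather than 35 by own transcript.

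**Figure D1:**
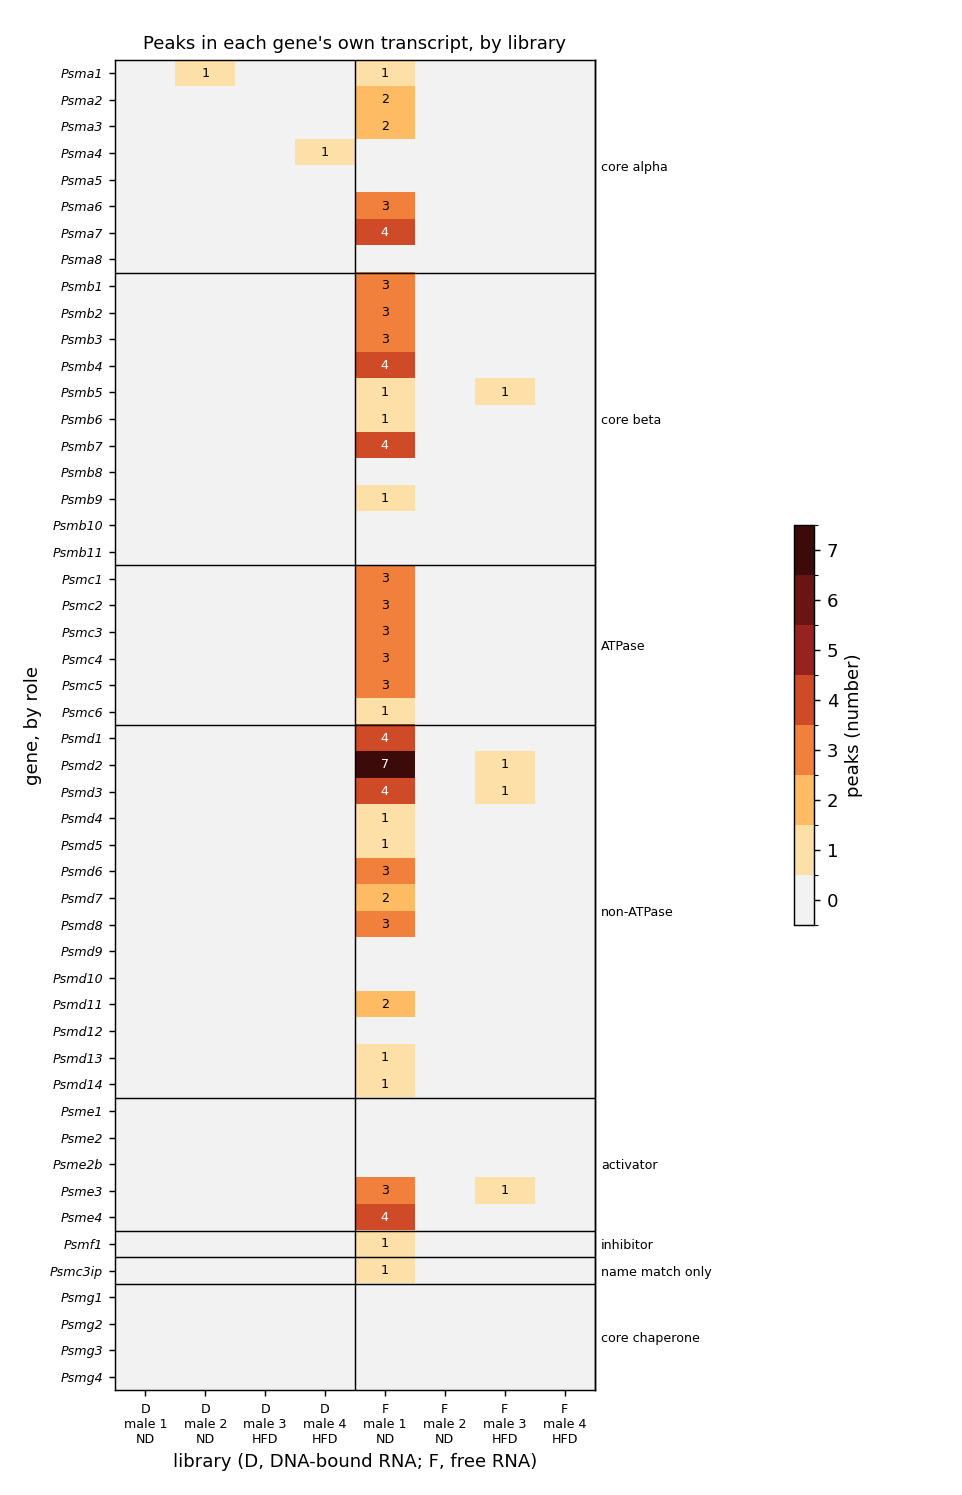
Number of peaks in each proteasome gene's own transcript (rows, grouped by role) in each library (columns), with white to dark squares for 0 to 7 peaks. The column of F of male 1 is filled for 34 of 50 genes, F of male 3 for 4, and D of males 2 and 4 for 1 each.

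No list had a genic peak for the deleted gene itself, Trdmt1, the symbol of Dnmt2. Peaks of other classes were named to it, 2 in D of male 2 and 1 in F of male 4. Even in F of male 1 only 37.1% of named genes had a genic peak, so this absence says little about the deletion. F of male 1, which held most of the genic proteasome peaks, also differed from the other libraries over all genes. Of its 25406 peaks 71.2% were genic, against 16.1% in F of male 3 and 2.15% to 3.68% in the other 6 lists. Its peaks held 3030644 tags, more than the 964711, 1209029 and 1252389 of F of males 2, 3 and 4. D of males 1 and 2 held more, with 9913057 and 9763408, and D of males 3 and 4 held fewer, with 1812719 and 1800579. The own-transcript peaks of F of male 1 covered 19 of 20 epididymal epithelium markers (95%) with 34336 summed tags, the exception being Wfdc2. They covered 11 of 15 sperm and spermatid markers (73.3%) with 1693 tags. Leukocyte markers were covered for 5 of 12 (41.7%) with 247 tags and erythroid markers for 2 of 6 (33.3%) with 2475 tags. Over all protein-coding genes the share in that library was 32.3%, close to the erythroid share. F of male 3 covered 13 of 20 epididymal markers (65%, with 5.92% over all genes) with 3725 tags. It covered 0 of 15 sperm markers, 0 of 12 leukocyte markers and 0 of 6 erythroid markers. In the other 6 lists the summed tags of the epididymal list ran from 0 to 46, and none of the sperm markers, among them Prm1, Prm2 and Odf1, had a peak. The part of RNA from other cells in the proteasome counts was not tested, and more transcribing cells and more RNA per cell cannot be told apart in such bulk samples.

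Within each male the difference F minus D in members with a genic peak was 32, -1, 2 and -1, a mean of 8 ± 16.1 (SD, n = 4). F held 8.5 ± 15.7 members and D 0.5 ± 0.577 (SD, n = 4 each). The count was higher in F in 2 males and lower in 2, so the mean difference lay within the spread between males. Without male 1 it was 0. By own transcript the differences were 34, -1, 4 and -1.

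Diet did not separate the males either. In F the ND males had 32 and 0 members and the HFD males 2 and 0, and in D the counts were 0 and 1 on ND and 0 and 1 on HFD. The groups overlapped in both fractions, and an exact permutation test of 2 against 2 males cannot give a two-sided p under 0.333.

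Single members could be tested for the number of genic peaks in F against D, within males. Of 32 members with a genic peak, 28 differed between the fractions in 1 male alone, which fixes the exact permutation p at 1, so the test says nothing about them. For the other 4 the exact two-sided p was 0.5 or 1, where 4 males allow no p under 0.125, and each adjusted p (Benjamini-Hochberg) was 1. The lower value belonged to Psma7 and Psme3, each with more genic peaks in F than in D in 2 of 4 males. Psma7 had 5 genic peaks in F of male 1, 1 in F of male 3 and 0 elsewhere. Psme3 had 1 in F of male 1, 1 in F of male 3 and 0 elsewhere. No member thus had a genic peak in more than 2 of the 8 libraries. These tests took genes by nearest start site, and own-transcript peaks were not tested this way. By the lists' annotation the Psma7 peak of F of male 3 lay at the start site of Ss18l1. The D peaks of Psmb3 and Psmb4, also among those 4 members, lay in the neighbours Pip4k2b and Pogz.

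Among core, ATPase and non-ATPase genes, the ATPases had the largest share with a peak in F of male 1, although the classes are small. By own transcript 6 of 6 ATPase genes had a peak, 13 of 19 core genes (5 of 8 alpha and 8 of 11 beta) and 11 of 14 non-ATPase genes. By nearest start site the numbers were 5 of 5, 11 of 14 and 9 of 14, beside 4 of 4 activators and 1 of 1 for the inhibitor. These classes hold only genes that a list named, without Psmc6 and Psme2, and by own transcript 2 of 5 activators had a peak. The free RNA of male 3 gave 0 of 6, 1 of 19 and 2 of 14 by own transcript. The non-ATPase class includes 3 chaperones, Psmd5, Psmd9 and Psmd10, of which 1 had an own-transcript peak in F of male 1. The core class includes 4 immune and thymic beta genes, of which 1 had such a peak, and the testis-specific Psma8, which had none. The shares of the classes thus depend partly on such genes. The differences between classes within the library have no replicate, so no test is given for them.

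**Figure D2:**
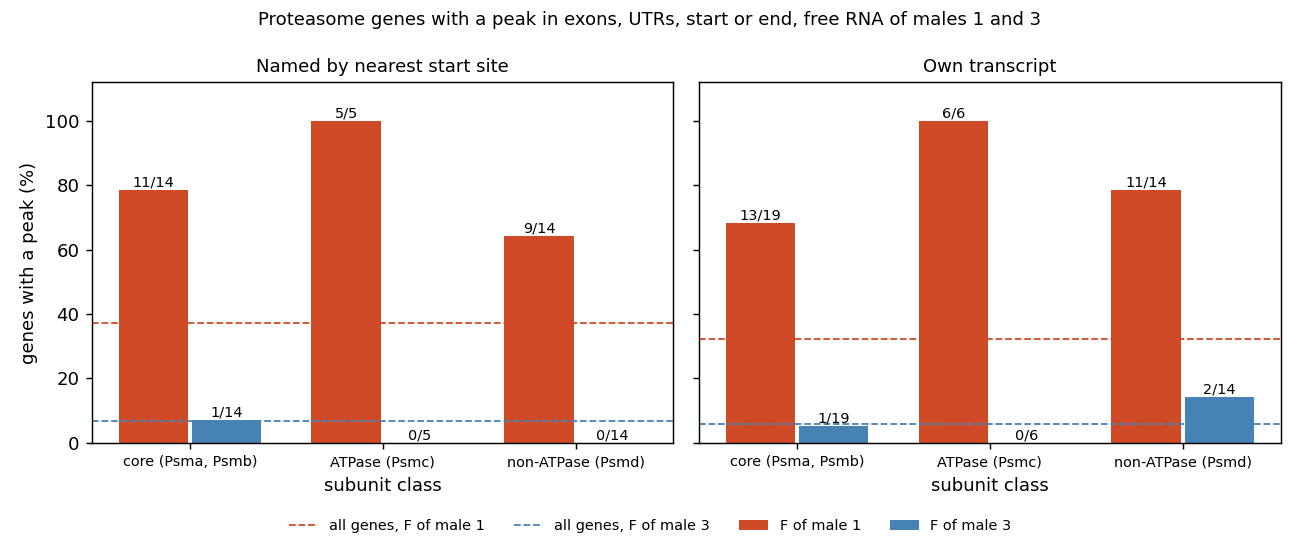
Percent of core, ATPase and non-ATPase genes with a peak in F of male 1 and F of male 3, by nearest start site (left, genes named in a list only) and by own transcript (right, all reference genes). Numbers over bars are genes with a peak of genes in the class, and dashed lines give the share over all genes. The 3 classes stand above the dashed line of male 1, while those of male 3 hold 0 to 2 genes each.

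Among alpha subunits of the core, 5 genes had own-transcript peaks in F of male 1. Psma7 had 4, in exons 2, 3, 4 and 7 of 7, with 25, 42, 24 and 20 tags. Psma6 had 3 peaks of 10, 14 and 21 tags. Psma2 and Psma3 had 2 peaks each and Psma1 had 1, with 14 to 22 tags a peak. Psma4, Psma5 and Psma8 had none there, so the testis-specific Psma8 was without an own-transcript peak in any of the 8 lists.

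A beta subunit gave the highest own-transcript peak of any member in F of male 1. Psmb6 had a single peak of 65 tags, in the last of its 6 exons, which ranked 576 among the highest peaks of 6794 genes in that library. Psmb5 had 1 peak of 51 tags, also in its last exon. Psmb7, with the trypsin-like site, had 4 peaks of 16 to 20 tags. The 3 catalytic beta subunits of the constitutive core were therefore present, with single high peaks for Psmb5 and Psmb6 and several low ones for Psmb7.

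The beta subunits without a proteolytic site were also seen over several exons. Psmb4 had 52, 31, 25 and 32 tags in exons 2 to 5 of 7. Psmb1 had 17, 49 and 50 tags in exons 4, 5 and 6 of 6. Psmb2 and Psmb3 had 3 peaks each, the highest with 26 and 29 tags. Introns part these exons, and fewer peaks were listed there: in this library the members had 86 own-transcript peaks and 8 peaks in their own introns.

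The catalytic subunits that replace Psmb5, Psmb6 and Psmb7 in immune and thymic cells had an own-transcript peak in F of male 1 for 1 of 4 genes (25%, with 32.3% over all genes). Psmb8 and Psmb10, of the immunoproteasome, and Psmb11, of the thymoproteasome, had no own-transcript peak in any list. Psmb9 had 1 of 14 tags in F of male 1, at the start site it shares with the divergent gene Tap1, a peptide transporter, to which that peak was named. The peaks named to Psmb8 lay in introns of Tap1 by the lists' annotation.

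Each ATPase gene was represented by 1 to 3 peaks in F of male 1. Psmc2 was highest, with 12, 43 and 19 tags in exons 2, 9 and 10 of 13. Psmc4 had 35, 28 and 18 tags, and Psmc3 had 26, 21 and 34 tags, with peaks in its first and last exon. Psmc1 and Psmc5 had 3 peaks each, and Psmc6 had 1 of 14 tags in its last exon. None of the ATPase genes had an own-transcript peak in another library.

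Of the non-ATPase subunits, Psmd2, a large scaffold that docks ubiquitin receptors, had the most peaks of any member. Its 7 peaks lay in exons 1, 5, 6, 11, 12, 13 and 21 of 21, with 36, 48, 33, 41, 34, 57 and 24 tags. By nearest start site it counted 0 genic peaks, since the lists placed these peaks in a non-coding isoform. Psmd3, a subunit of the lid, had 4 peaks of 35, 25, 26 and 51 tags, and Psmd1, the other large scaffold, had 4 of 14 to 24 tags.

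The remaining lid genes of the name pattern, and beside them Psmd4, had lower highest peaks than Psmd3 with its 51 tags. Psmd8 had 38, 39 and 24 tags in exons 1, 4 and 5 of 7. Psmd6 had 3 peaks of 20 to 21 tags, Psmd7 had 19 and 24 tags, and Psmd11 had 18 and 10 tags. Psmd13 had 1 peak of 15 tags, Psmd12 had none by the lists' own classes, and its intron peak overlapped exons of the GENCODE M21 models. Psmd14, the deubiquitinase, had 1 peak of 20 tags, and Psmd4, a ubiquitin receptor, had 1 of 23 tags.

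Psmd5, Psmd9 and Psmd10 are chaperones of the base of the regulatory particle and leave it once it is built. Psmd5 had 1 peak of 21 tags, and Psmd9 and Psmd10 had none in any list. The core chaperones Psmg1, Psmg2, Psmg3 and Psmg4 likewise had no own-transcript peak in any list. Of these 7 chaperones 1 had a peak in F of male 1 (14.3%, with 32.3% over all genes). Pomp, which matures the core and has no Psm name, had 2 own-transcript peaks with up to 28 tags there, and 2 genic peaks were named to Psmg1 from the neighbouring gene Brwd1.

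Activators split by type. Psme3, the nuclear activator, had 20 tags in its 5' UTR and 26 and 18 tags in its 3' UTR in F of male 1. Psme4, the large activator known from spermatids, had 12, 21, 37 and 15 tags in exons 1, 18, 36 and 37 of 47. Psme1, Psme2 and Psme2b, of the interferon-inducible activator, had no peak in their own annotated transcript, and the genic peaks named to Psme1 and Psme2b lay in Emc9 and in 9930111J21Rik1 by the lists' annotation, although the peaks overlapped an exon of Psme1 and of Psme2b in GENCODE M21. Psme2b is a copy of Psme2, so reads of either gene could have been placed there. The inhibitor Psmf1 had 1 peak of 30 tags in exon 2 of 5. Psmc3ip had 1 peak of 26 tags at its transcript end.

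**Figure D3:**
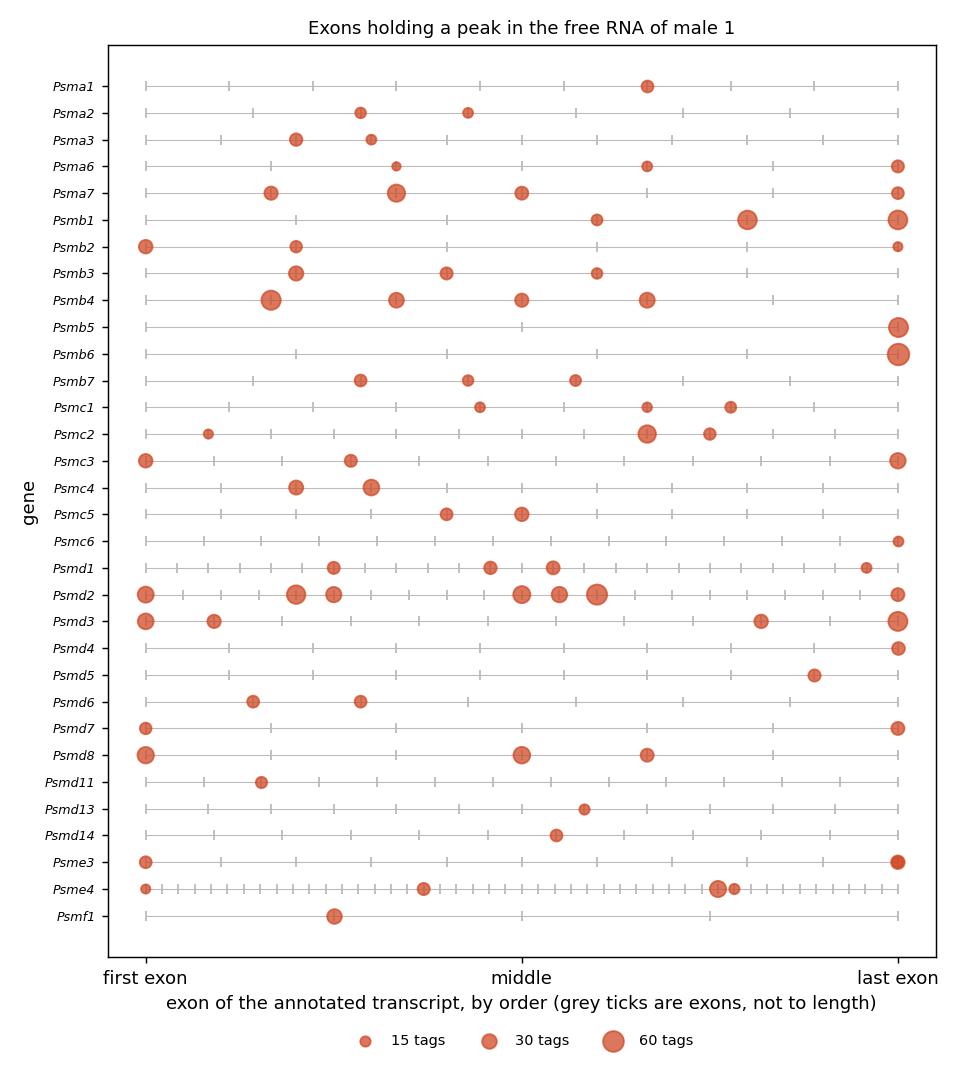
Exons that held a peak in F of male 1, by gene (rows) and by exon order from the first to the last (horizontal axis, grey ticks for exons); each circle is a peak and its area is proportional to its tags. Psmb4 shows 4 successive exons, Psmd2 shows 7 of 21, and the largest circles are Psmb6 with 65 tags and Psmd2 with 57.

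The peaks of proteasome transcripts were no higher than those of other genes in F of male 1, and among genes with a peak they were denser per length. The median was 21 tags a peak over the 86 member peaks and 23 over 17863 peaks of all protein-coding genes with a peak. The highest peak of a gene had a median of 26 tags for the 34 members and 25 for all 6794 genes, and 18 of 34 members were above the latter. Members had a median of 3 peaks, against 2 for all genes, and 1.28 peaks per kb of mRNA, against 0.587. Their median mRNA length was 1673.5 bases, against 3363 bases. As genes without a peak were left out, a short mRNA by itself gives a higher density, and genes of equal length were not compared.

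By class, the median density in peaks per kb was 1.52 for the 13 core genes, 1.78 for the 6 ATPase genes, 1.27 for the 11 non-ATPase genes and 0.871 for the 2 activators. The median of the highest peak was 26, 30, 23 and 31.5 tags. The classes overlapped gene by gene: the highest peaks ran from 14 to 65 tags in the core, from 14 to 43 tags in the ATPases and from 15 to 57 tags in the non-ATPases.

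Member peaks lay mostly in inner exons, and a smaller share was in 3' UTRs and last exons than over all genes. Of 86 own-transcript peaks 66 were in exons (76.7%, with 66.0% over all genes), 3 in 3' UTRs (3.49%, with 19.6%), 3 in 5' UTRs (3.49%, with 4.54%), 3 at start sites (3.49%, with 5.01%), 4 at transcript ends (4.65%, with 3.68%) and 7 in the non-coding class (8.14%, with 1.15%). Of the 79 peaks with an exon number, 72.2% were in an inner exon, 10.1% in the first and 17.7% in the last, against 61.9%, 9.02% and 29.1% over all genes. A median of 92.4% of the bases of a member peak fell in GENCODE M21 exons of its gene, 38 of 86 peaks lay wholly in exons and 2 had no base in an exon.

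Own-transcript peaks in more than 1 library were found for 5 of 50 members (10%, with 8.98% of all protein-coding genes). For 4 of them (8%, with 5.03%) the libraries were F of males 1 and 3, an ND and an HFD male. Both counts were thus near the background. Psmb5 had 51 tags in male 1 and 62 in male 3, Psmd3 had 51 and 38 in the 3' UTR, Psmd2 had 24 and 28 at the 3' end, and Psme3 had 20 and 26 in the 5' UTR. The male 1 and male 3 peaks overlapped for each of these 4 genes. In Psmb5, Psmd3 and Psmd2 they lay in the last exon or at the end, and in Psme3 they lay in the first exon. The fifth, Psma1, had 20 tags in exon 7 of 10 in F of male 1 and 58 tags in D of male 2 at the transcript end.

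The DNA-bound RNA had 2 own-transcript peaks in all. The Psma1 peak of D of male 2 was in the TTS class, overlapped no Psma1 exon in GENCODE M21 and was named to Copb1. The Psma4 peak of D of male 4 had 58 tags, in exon 2 of 9 in the 5' UTR class, and was named to AY074887. In the other males the D lists held no peak of this kind for either gene, and D of male 4 had 1 peak of 24 tags in an intron of Psma1. The 2 genic D peaks named to members lay in neighbours, the one named to Psmb4 in the 3' UTR of Pogz with 61 tags and the one named to Psmb3 in the 3' UTR of Pip4k2b with 52 tags.

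Nearest start sites thus named a part of the peaks to a neighbour. In F of male 1, 63 of 75 genic peaks named to members lay in the member's own transcript and 12 in another gene, among them Ss18l1 for Psma7, Atxn7 for Psmd6, Pip4k2b for Psmb3, Nrde2 for Psmc1 and Retreg3 for Psmc3ip. Conversely, 17 of the 86 own-transcript peaks were named to another gene, as Psmb5 to Mir686, Psmd3 to Csf3, Psme4 to Gpr75 and Psmd14 to Tbr1. The F peak of male 3 named to Psma7, of 36 tags, was placed at the start site of Ss18l1 by the lists' annotation and overlapped an exon of Psma7 in GENCODE M21. The 9 reference genes that no list named were Psma4, Psmb5, Psmb9, Psmb10, Psmb11, Psmc6, Psme2, Psmg2 and Psmg4, of which Psma4, Psmb5, Psmb9 and Psmc6 had own-transcript peaks.

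Outside F of male 1 the peaks named to members were mostly intronic or intergenic. The 4 D lists named 1, 42, 17 and 22 peaks to members, of which 0, 1, 0 and 1 were genic. The 4 F lists named 100, 7, 5 and 19, of which 75, 0, 2 and 0 were genic. Simple or low-complexity repeats held 45.2% of the member peaks of D of male 2, where they held 27.4% of all its peaks. The same shares were 41.2% and 33.4% for D of male 3 and 36.4% and 29.4% for D of male 4. Such repeats held 1% in F of male 1, with 3.34% of all peaks, 42.9% in F of male 2, with 20.8%, and 31.6% in F of male 4, with 18.3%. They held 0% of the 5 member peaks of F of male 3, with 15.8% of all peaks, and 0% of the 1 member peak of D of male 1, with 22.7%.

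**Figure D4:**
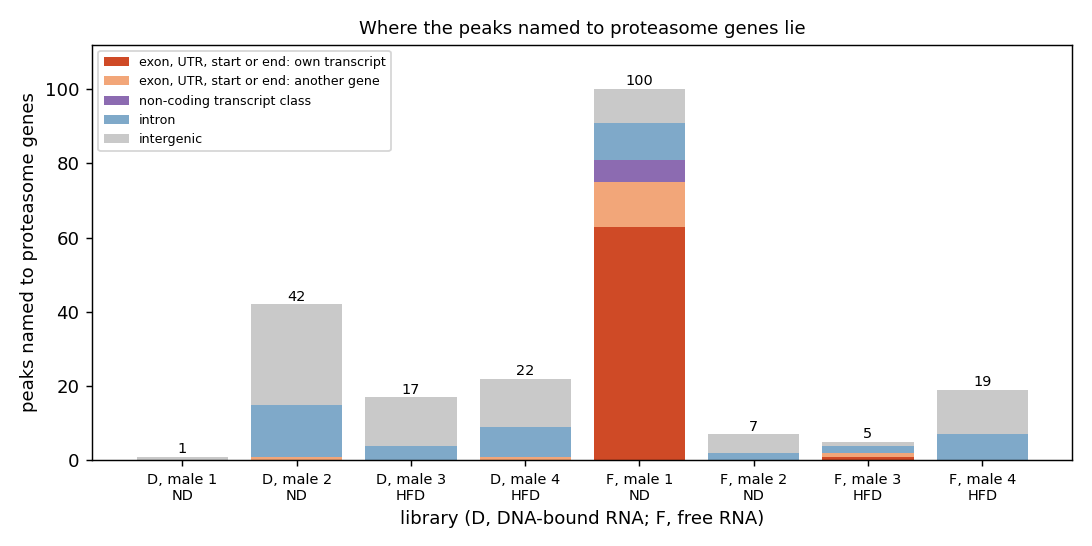
Number of peaks named to proteasome genes in each library, stacked by position class. F of male 1 has 100 peaks, of which 63 lie in exons, UTRs, starts or ends of the member's own transcript, while D of male 2 has 42, of which 41 are intronic or intergenic.

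Positions that recurred between libraries were mostly of a genic or a repeat kind. Of 20 positions shared by at least 2 libraries, 6 were shared by F of males 1 and 3 alone, and 4 of these were the genic ones above. The other 2 were in intron 3 of Psmb7, with 22 and 29 tags, and on chromosome X in an intergenic stretch named to Psmd10, with 41 and 22 tags. At least 1 D library took part in 13 of the 20 positions, and 12 of those lay in simple or low-complexity repeats and 0 were genic. The remaining position was a simple repeat named to Psmd7, with 12 tags in F of male 1 and 22 in F of male 4. The 3 positions found in 3 libraries were pyrimidine-rich repeats named to Psmd14, at 2 places, and to Psmg3.

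Genes outside the name pattern that work with the proteasome or belong to it followed the same libraries. Of 22 proteasome-associated genes, 19 had an own-transcript peak in F of male 1 (86.4%, with 32.3% over all genes). The count was 5 in F of male 3 (22.7%, with 5.92%) and 1 in D of male 2 (4.55%, with 4.62%). It was 2 in D of male 3 (9.09%, with 2.39%) and 0 in the other 4 lists. The polyubiquitin gene Ubb had the highest peak of the list, with 241 tags in F of male 1 and 82 tags in F of male 3. Nfe2l1, the transcription factor that induces proteasome genes when the protease is impaired, had 5 peaks with up to 88 tags in F of male 1 and 1 of 18 tags in D of male 3. Vcp, the segregase that hands substrates over, had 10 peaks with up to 82 tags in F of male 1. The shuttle factor Rad23b had a peak in 4 libraries, with up to 29 and 31 tags in F of males 1 and 3 and 30 and 17 tags in D of males 2 and 3. Uchl5, Paaf1 and Rps27a had none in F of male 1.

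Other large complexes were also represented above the share over all genes in F of male 1. Own-transcript peaks were listed for 8 of 10 genes of the COP9 signalosome, a relative of the proteasome lid, for 12 of 13 genes of the translation factor eIF3, for 8 of 8 genes of the chaperonin CCT and for 55 of 84 cytosolic ribosomal protein genes. In F of male 3 these were 0 of 10, 2 of 13 (15.4%), 1 of 8 (12.5%) and 9 of 84 (10.7%), with 5.92% over all genes. Set beside 68.0% of the proteasome genes and 32.3% of all genes, the shares in F of male 1 were 80.0%, 92.3%, 100% and 65.5%. The proteasome share in F of male 1 was thus near that of the ribosomal protein genes and below those of the other complexes.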

How the data were processed

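RNA of 8 Dnmt2-/- sperm libraries was given by the authors as 8 peak lists. Per the methods and labels, reads were checked with FastQC, trimmed with cutadapt and Trimmomatic 0.36, aligned to mm10 with Hisat2, and peaks were called and annotated per library with HOMER 4.9 (4-fold over a local region of 10000 bases, Poisson p 0.0001, false discovery rate 0.001). The deposited peak score has no stated unit. It was read as tags scaled to a common total, since scores under 100 were whole multiples of a step within 0.2 tags. Other deposited columns used were position and distance.

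Genes were taken by nearest start site and by the annotated transcript, matched to symbols through RefSeq tables. Counts were compared with Python 3.11.15 and SciPy 1.17.1 by exact permutation within males (the fractions came from the same animal) and tested on simulated data. Named genes were those with genic peaks in 2 or more libraries, in any D library or in F of male 2 or 4; the 10 with most genic peaks in F of male 1; the 5 with the highest genic score in F of males 1 and 3; those without one; and fixed catalytic, immune, testis, activator and chaperone genes. Members, lists and rules were chosen with earlier results of these data known. The male is the replicate, lowest listed peaks held 6 to 14 tags, and a gene without a peak is not shown to be absent. Library depth before peak calling was not used here. Wild-type samples were not used here. Some genes of the proteasome-associated list are not reported here and were left out of its counts.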

Additional observations from a re-analysis of the deposited data

Results flagged for a closer look

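F of male 1 stood apart from the other 3 free-RNA libraries by a test for a single far value. By nearest start site this held for all members (32), for the core (11), for the ATPases (5) and for the non-ATPases (9). By own transcript it held for all members (34), for the core (13) and for the ATPases (6). The test flags about 1 in 20 groups by chance, and these 7 values rest on the same library. That library was also high over all named genes. A genic peak was listed for 37.1% of them in F of male 1. The shares were 0.887%, 6.76% and 1.97% in F of males 2, 3 and 4. The flags are thus not particular to the proteasome genes.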

How the results depend on the processing

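With intron peaks counted too, members numbered 10 in D of male 2 (core 7, ATPase 1, non-ATPase 1), 4 in D of male 3 (core 2, non-ATPase 1), 8 in D of male 4 (core 5, ATPase 1, non-ATPase 1), 2 in F of male 2 (core 1), 4 in F of male 3 (core 3) and 7 in F of male 4 (core 4, non-ATPase 2). Overlap with GENCODE M21 exons, chosen after seeing the data, gave 0 in D of male 2, 2 in D of male 3, 1 in F of male 2 and 6 in F of male 3. With only scores at or above the list's median, F of male 1 held 19 (core 7, ATPase 3). In F of male 3 exon and UTR peaks alone gave 1 (core 0), the annotated transcript 4 (non-ATPase 2), and core and regulatory subunits alone 1. The share over all genes was not computed under these settings. The changed counts, among them the rise with intron peaks, therefore cannot be set against a background and are not a result about the members. Without F of male 1, also chosen after seeing the data, 4 members remained by nearest start site and 6 by own transcript. Leaving out each male in turn gave a mean F minus D difference of 0 to 11, and a range of -0.333 to 1.67 peaks for Psmb3 and of -0.333 to 1.33 for Psmb4, in both of which the sign turned without male 1. The D peaks behind that turn lay in the neighbours Pip4k2b and Pogz, not in the transcripts of Psmb3 and Psmb4. Without the replicate block the lowest exact p of a member was 0.429, and neither fit made a call. Peaks of fewer than 6 tags (14 in D of male 2) were not listed, so low transcripts could not be seen.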
